A study of Mus musculus with 5 samples.

Results

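Neural stem cells (NSC) of the mouse carried 2227 sites of the nuclear receptor TLX that lay inside protein-coding genes, in acetylated chromatin, and had no counterpart in the TLX peak list of brain tumour stem cells (BTSC). The sites were chosen by measured peak calls. Of 7458 TLX peaks of NSC, 6282 had no overlap with a TLX peak of BTSC, and 5781 of those overlapped a peak of histone H3 lysine 27 acetylation (H3K27ac) of NSC. The 2227 sites are those of the 5781 whose summit lay inside a protein-coding RefSeq gene and more than 1 kb from every protein-coding gene end. A further 230 gene-body peaks of the NSC list alone lay outside H3K27ac and are not among them. "NSC-only" means here that no peak was called in BTSC, not that TLX was absent there.

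The study profiled TLX and H3K27ac by chromatin immunoprecipitation and sequencing in cultured mouse NSC and BTSC. For TLX, NSC or BTSC had been transduced with TLX carrying a 3xTY1 tag, which an antibody against TY1 precipitated, so the sites are those of the introduced, tagged protein. H3K27ac was profiled in NSC and in BTSC that had not been transduced, so the mark and the factor were read in different cells. A control of cell cultures with the empty vector MSCV-neo and no antibody completes the series and was not analysed here. No TY1 library of untagged cells was analysed, so signal of the antibody unrelated to TLX cannot be told apart. The labels name no line, animal or tumour of origin for either culture. Each group is 1 library without replicates; cultures were not tested against each other, and the 95% intervals below cover counting error only. The depth of the libraries is unknown, and the NSC list was much the longer, with 7458 peaks against 1436 in BTSC. In bulk cultures, a smaller share of bound cells and weaker binding per cell cannot be told apart.

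TLX, encoded by Nr2e1, is an orphan nuclear receptor that keeps neural stem cells of the forebrain in an undifferentiated, self-renewing state. It binds DNA at sites built on the half-site AAGTCA and is known mainly as a repressor that recruits histone deacetylases, the demethylase LSD1 and other corepressors. H3K27ac marks active promoters and active enhancers, and many enhancers of developmental genes lie within the genes themselves, often in long introns or beside alternative promoters.

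Sequence could be read for the 106 members whose summit fell in a window from 250 bases before to 50 bases after an annotated start site, as held in the RefSeq promoter table for GRCm38.p6 (the assembly of mm10). Below are the window in the potassium channel gene Kcnj16, which ties with Pafah1b2 for the strongest, and those of 4 strong members that contain AAGTCA, Pafah1b2 included, shown because that motif is the known half-site. The Kcnj16 window is chr11:110997237-110997536 on the plus strand. The window of Pafah1b2, which encodes a subunit of the acetylhydrolase of platelet-activating factor, is chr9:45984822-45985121 on the minus strand. That of Dcaf10, a substrate receptor of a ubiquitin ligase, is chr4:45341851-45342150 on the plus strand. That of Gtpbp3, an enzyme of mitochondrial tRNA modification, is chr8:71488478-71488777 on the plus strand. That of Creb5, a leucine zipper transcription factor gene, is chr6:53573124-53573423 on the plus strand. Each is printed 5′ to 3′ on the strand of the gene, with the motif in capitals, as AAGTCA or as its reverse complement TGACTT.
Kcnj16: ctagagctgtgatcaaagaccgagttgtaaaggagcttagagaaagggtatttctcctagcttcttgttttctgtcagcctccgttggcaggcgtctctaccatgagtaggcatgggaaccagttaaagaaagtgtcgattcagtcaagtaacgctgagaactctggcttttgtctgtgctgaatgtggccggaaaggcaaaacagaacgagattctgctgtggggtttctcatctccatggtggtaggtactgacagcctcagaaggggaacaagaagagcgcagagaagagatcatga
Pafah1b2: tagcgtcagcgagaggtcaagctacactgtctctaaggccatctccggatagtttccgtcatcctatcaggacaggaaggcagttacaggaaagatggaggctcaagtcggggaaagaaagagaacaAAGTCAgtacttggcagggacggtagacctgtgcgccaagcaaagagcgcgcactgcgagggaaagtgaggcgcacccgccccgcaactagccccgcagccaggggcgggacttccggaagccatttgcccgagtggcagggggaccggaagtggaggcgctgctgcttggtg
Dcaf10: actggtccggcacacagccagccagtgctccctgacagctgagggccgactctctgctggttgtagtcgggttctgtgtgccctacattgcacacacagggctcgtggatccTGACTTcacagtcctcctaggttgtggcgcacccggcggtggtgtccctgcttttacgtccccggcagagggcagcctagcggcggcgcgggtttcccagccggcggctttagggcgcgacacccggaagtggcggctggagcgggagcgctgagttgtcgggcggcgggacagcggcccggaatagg
Gtpbp3: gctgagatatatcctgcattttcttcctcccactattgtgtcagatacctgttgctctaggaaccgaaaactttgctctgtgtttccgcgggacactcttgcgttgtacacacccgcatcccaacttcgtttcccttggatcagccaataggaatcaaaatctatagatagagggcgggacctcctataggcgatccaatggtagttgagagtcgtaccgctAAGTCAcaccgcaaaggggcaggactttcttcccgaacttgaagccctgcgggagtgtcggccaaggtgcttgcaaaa
Creb5: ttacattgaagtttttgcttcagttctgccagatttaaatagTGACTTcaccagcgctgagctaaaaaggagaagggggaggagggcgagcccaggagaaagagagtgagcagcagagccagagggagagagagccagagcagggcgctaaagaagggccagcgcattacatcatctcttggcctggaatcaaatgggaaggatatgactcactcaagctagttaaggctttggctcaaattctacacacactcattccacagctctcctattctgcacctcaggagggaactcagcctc

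In each of these 5 genes the TLX peak covered the whole 300-base window. The folds were 7.46 in Kcnj16 and Pafah1b2, 6.76 in Dcaf10, 6.12 in Gtpbp3 and 5.55 in Creb5. Counted from the start site, the summit lay at position -40 in Pafah1b2 and the motif began at -123, whereas in Creb5 the summit lay at -32 and the motif began at -208. The same motif, searched as AAGTCA on both strands, was in 13 of the 106 windows (12.3%, 95% interval 6.69 to 20.1) and in 15.1% of all 32851 promoter windows of the table. The GC box GGGCGG was in 57 of the 106 windows (53.8%, 43.8 to 63.5) and in 35.7% of all windows. CCAAT was in 34.9% against 37.4%, the E-box CAGCTG in 19.8% against 16.3%, and TGAGTCA, the AP-1 motif, in 6.60% against 5.20%, all on both strands and with no correction for overlap between motifs. Most members lie far from any such window and their sequence was not read, so these shares speak only for members at annotated starts. The 106 members also lay in NSC H3K27ac by the rule, whereas the 32851 windows were not chosen by acetylation. The comparison is thus not a like one, and the part of acetylation in the differences was not tested.

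The member sites were of moderate strength. Their median fold, a linear enrichment given by the authors for each peak, was 4.72 (95% interval 4.59 to 4.78), with an upper and lower quartile of 5.74 and 4.02 and a range from 2.65 to 18.4. Members had a median width of 597 bp and a median −log10 q of 7.92. The 417 acetylated gene-body peaks that did overlap a BTSC peak had a median fold of 6.69 (6.46 to 6.94), a width of 777 bp and a −log10 q of 16.6. Absence of a BTSC peak is what selected the members and it went with strength in the NSC list, so this difference is a description of what the rule kept. Among all acetylated gene-body TLX peaks of NSC, 84.2% (82.8 to 85.6) were NSC-only, close to the 84.6% of all acetylated NSC TLX peaks wherever they lay. At gene ends the share was 88.2% (86.8 to 89.5) and between genes 80.8% (78.9 to 82.5).

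When the 2644 acetylated gene-body peaks were cut into 10 equal groups by −log10 q, the NSC-only share was 95.5% (92.2 to 97.6) in the lowest group and 44.2% (38.1 to 50.4) in the highest. It stayed between 92.0% and 96.6% over the 5 lowest groups and fell to 79.2% in group 8 and 70.5% in group 9. Of the 265 sites in the highest group, 117 were members. No member had a fold under 2. Cut to as many peaks as the BTSC list, the NSC list left 298 members with a median fold of 7.46, and the NSC-only share of its acetylated gene-body peaks was 57.1% (52.7 to 61.4).

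**Figure D1:**
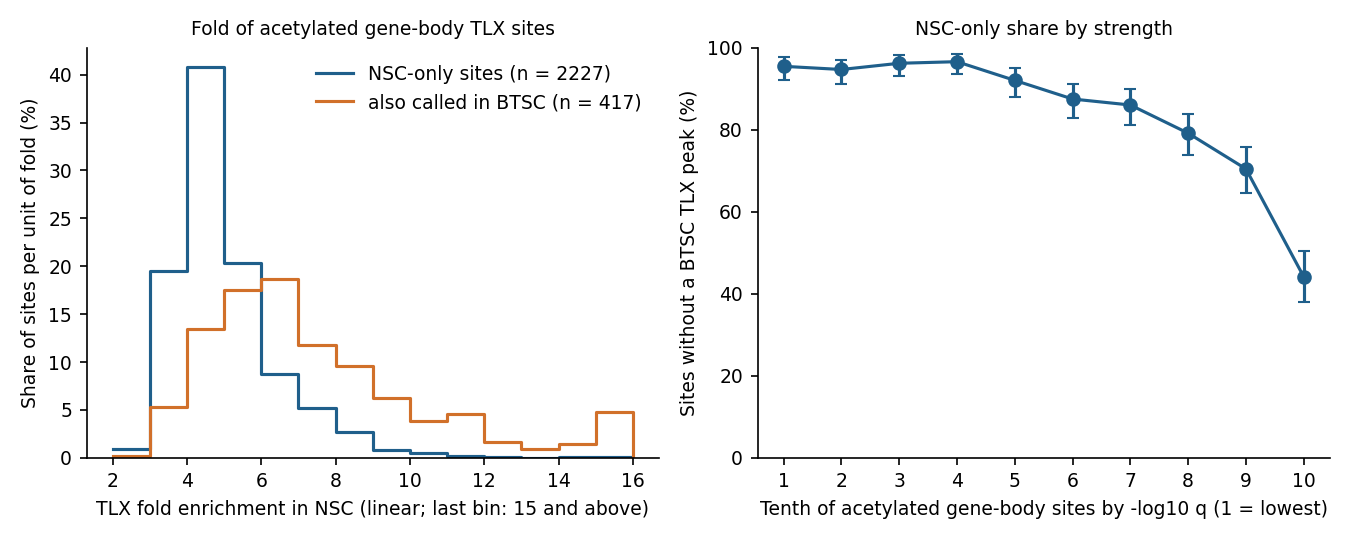
Left, distribution of the TLX fold enrichment in NSC (x axis, linear, in bins of 1 unit with the last bin holding 15 and above) as the share of sites (y axis, percent) for the 2227 NSC-only sites and the 417 sites also called in BTSC. Right, share of acetylated gene-body TLX sites without a BTSC peak (y axis, percent, with exact 95% intervals) in 10 equal groups by −log10 q (x axis), which is 95.5% in the lowest and 44.2% in the highest group.

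The strongest members lay in genes of diverse roles. The leading site was in Nav2, which encodes a cytoskeletal protein of growing neurites, at chr7:49261880-49262758. Its fold was 18.4 with a −log10 q of 85.9, and its summit lay 303285 bp from the nearest gene end. There the H3K27ac peak of NSC was 2102 bp wide and the one of BTSC 17069 bp, and the nearest TLX summit of BTSC was 99428 bp away. Next came a site in Dennd2a, which encodes an exchange factor for Rab GTPases, at chr6:39478303-39479315 with a fold of 16.3. It lay in 1922 bp of NSC H3K27ac and in no H3K27ac peak of BTSC.

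Hs3st3a1, an enzyme that sulfates heparan sulfate, had a site of fold 15.5 at chr11:64489498-64490664, where the H3K27ac peaks spanned 1609 bp (NSC) and 1493 bp (BTSC). The actin-binding protein gene Lima1 had a site of fold 14.7 at chr15:99787420-99788246, where they spanned 1681 bp (NSC) and 644 bp (BTSC). A site of fold 14.3 in Hivep3, a zinc finger factor gene, at chr4:119937576-119938414, had 556 bp of H3K27ac in NSC and none in BTSC. The strongest sites thus included some with acetylation in both cultures and some without a BTSC acetylation peak. Sites of Prcd (12.2), Epn2 (11.6), Clec12b (11.5), Pitpnc1, Scrn1 and Shq1 (11.3 each), Tulp4 (10.9) and Antxr1 (10.7) followed by fold. Epn2 encodes an endocytic adaptor and Antxr1 a collagen-binding receptor. Dclk1 (10.5), a microtubule-associated kinase of neural progenitors, Cap2 (10.3), Vgll4 (10.1), a cofactor of TEAD proteins, Wls (10.1), the carrier for Wnt secretion, Magi1 (9.52), Aak1 (9.42) and Apbb2 (8.84) completed the 20 members of highest q. Of these 20, 15 overlapped BTSC H3K27ac, against 92.3% of all members, and this difference was not tested. Dennd2a, Antxr1, Clec12b, Scrn1, Shq1, Vgll4, Magi1 and Aak1 among them are on chromosome 6, which held 11.1% of all members.

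Most member sites were acetylated in BTSC as well. BTSC H3K27ac, which did not enter the choice of members, overlapped 2056 of the 2227 sites, 92.3% (91.1 to 93.4), against 93.7% of all acetylated NSC TLX peaks and 79% of all NSC H3K27ac peaks. The share of members was near that of TLX sites in general. It was 99.8% (98.7 to 100) in the 417 gene-body sites also called in BTSC, where 416 overlapped. Of 2058 NSC-only sites at gene ends 98.3% (97.6 to 98.8) overlapped, and of 1496 NSC-only sites between genes 85.7% (83.8 to 87.4). The members thus stood below the gene ends and above the sites between genes, with intervals that do not overlap. These classes also differed in their acetylation in NSC, with a median H3K27ac fold of 9.07 at members, 9.56 at the gene-body sites called in both cultures, 13.4 at gene ends and 7.35 between genes. The part of that difference in the overlap with BTSC was not tested. Without chromosomes 1 and 6, 93.0% (91.8 to 94.1) of 1887 members overlapped BTSC H3K27ac.

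The overlap with BTSC acetylation followed the acetylation of NSC and not the strength of TLX. In 4 equal groups of members by H3K27ac fold in NSC, the share was 77.9% (74.2 to 81.3) in the lowest, then 94.8%, 98.2% and 98.4%. In 4 equal groups by −log10 q of TLX it was 92.5%, 92.1%, 92.3% and 92.5%. Groups of this size do not show the 20 members of highest q, named above, where the share was lower. The 171 members without BTSC acetylation lay in narrower and weaker H3K27ac of NSC, with a median width of 1604 bp (1355 to 1777) against 3485 bp (3325 to 3694) and a median fold of 3.75 against 9.57. Their TLX fold was level with the others, at 4.78 (4.59 to 4.97) against 4.70 (4.59 to 4.78). They also lay farther from gene ends, at a median of 28980 bp (21427 to 38463) against 18573 bp (16736 to 20336).

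**Figure D2:**
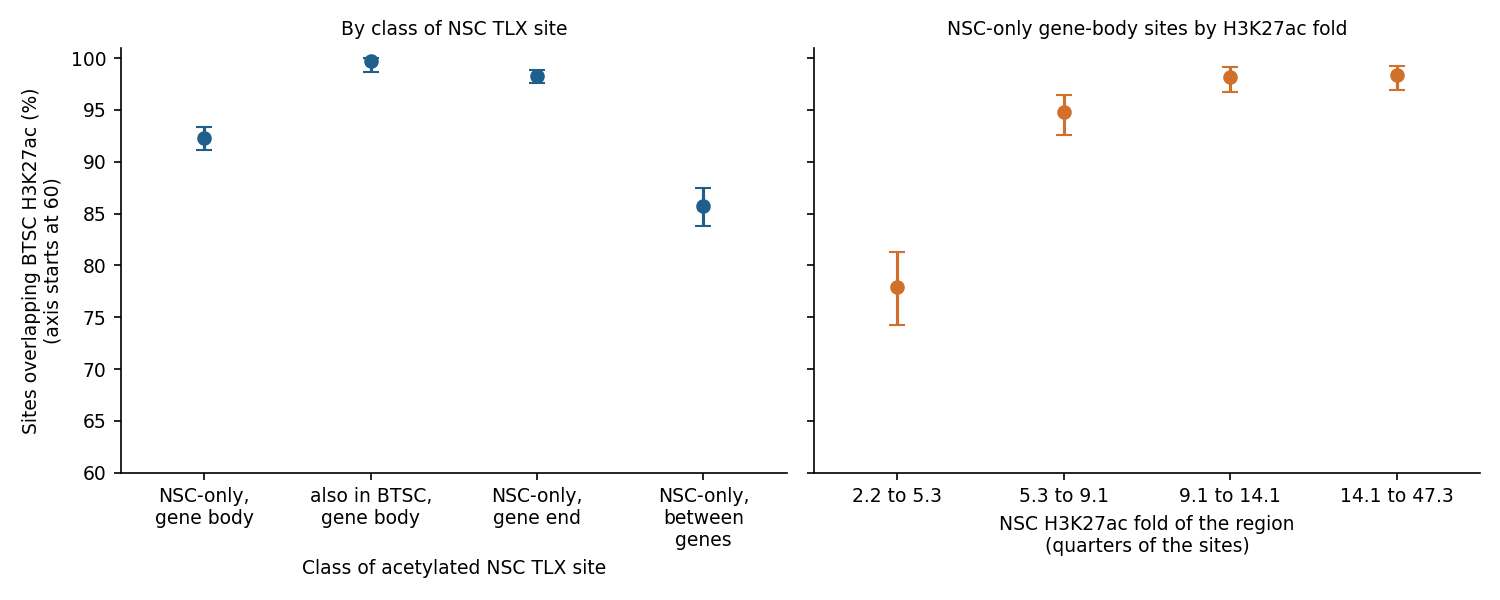
Left, share of acetylated NSC TLX sites that overlap H3K27ac of BTSC (y axis, percent, starting at 60) for 4 classes of site. Right, the same share for the NSC-only gene-body sites in 4 equal groups by the H3K27ac fold of their region in NSC (x axis), rising from 77.9% to 98.4%. Points are shares with exact 95% intervals.

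The 171 members without BTSC acetylation sat in 152 host genes, and 18 of these genes held more than 1 of them. Scrn1 had 3 of its 3 members in this class, with TLX folds from 5.17 to 11.3. Six3, a homeobox factor gene of forebrain and eye, had 3 of 3, with folds from 4.02 to 4.78, all in 1 H3K27ac region of 15419 bp. Nkx2-2, a homeobox gene of ventral progenitors and the oligodendrocyte lineage, had 2 of 2, with folds of 4.97 and 7.46, in 1 region of 11657 bp. Six3 and Nkx2-2 differ from most of the class in that their regions were wide and had a high H3K27ac fold in NSC, 17.1 and 16.1. Among the 10 strongest of the class, beside Dennd2a, Hivep3, Clec12b, Scrn1 and Magi1, were sites in Rbms3 (fold 9.37), Ano1 (9.18), Slc10a7 (8.99) and Dab1 (7.52), the last encoding the adaptor of Reelin signalling. Chromosome 6 carried 36 of the 171 sites (21.1%) and 212 of the 2056 with BTSC acetylation (10.3%), and chromosome 4 carried 24 and 148. Dennd2a, Scrn1, Clec12b and Magi1 are on chromosome 6.

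The NSC-only share was lowest on chromosome 1. There 92 of 152 acetylated gene-body TLX peaks were NSC-only, 60.5% (52.3 to 68.4), against 85.0% (83.5 to 86.5) on the chromosomes other than 1 and 6. Chromosome 6, which held 11.1% of all members, had 248 of 273, 90.8% (86.8 to 94.0). That was below the shares of chromosomes 18 and 19, 95.05% (88.8 to 98.4) and 94.7% (86.9 to 98.5), with intervals that overlap.

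Members lay throughout gene bodies. The median distance from summit to the nearest protein-coding gene end was 19017 bp (17350 to 20926), with quartiles of 4792 and 53365 bp and a maximum of 730300 bp. The median was 27749 bp with a limit of 2.5 kb, 12355 bp with one of 500 bp, 10116 bp with all genes of the annotation and 28910 bp with the shortened NSC list. Of the members, 297 (13.3%) were 1 to 2 kb from a gene end, 535 (24.0%) 2 to 10 kb, 793 (35.6%) 10 to 50 kb and 602 (27.03%) over 50 kb. BTSC acetylation overlapped 96.6% (93.9 to 98.4) of the nearest of these classes and 89.9% (87.2 to 92.2) of the farthest. Median TLX fold was 4.40 (4.21 to 4.40) in the nearest and 4.80 (4.78 to 4.97) in the farthest.

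At the 1 kb limit itself, the nearest members were sites at 1002 bp in Paip1 (fold 4.40), Tcf7l2 (4.40) and Plppr5 (4.59). Just outside the limit, at 996, 992 and 991 bp, stood sites in Wasf1 (3.25), Ubp1 (3.20) and Slc1a2 (3.63). All 6 overlapped H3K27ac of BTSC.

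The H3K27ac region around a member was usually internal to the gene. For 1841 members (82.7%, 81.0 to 84.2) the region covered no protein-coding gene end, and for 386 (17.3%, 15.8 to 19.0) it extended over one. That share depends on the limit set by the rule, with 8.59% for a limit of 2.5 kb and 27.4% for one of 500 bp, and was 10.7% with the shortened NSC list. The same share among gene-body sites called in both cultures was 16.8% (13.3 to 20.7). Members in regions that reached a gene end lay at a median of 1995 bp from it, in regions of 7321 bp with an H3K27ac fold of 15.6. Those in internal regions lay at 27853 bp, in regions of 2781 bp with a fold of 7.81. BTSC acetylation overlapped 96.6% (94.3 to 98.2) of the former and 91.4% (90.0 to 92.7) of the latter. Sites tended to sit toward the middle of the acetylated region, with 1727 summits (77.5%) nearer to its centre than to its edges.

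Most acetylated regions with a member held no other member. The members occupied 2082 H3K27ac regions of NSC, of which 1969 (94.6%) held 1 member and 113 held more, up to 6. By site, 258 of the 2227 members lay in a region with 2 or more. TLX peaks that are not members do not enter these counts. Of all members, 91 (4.09%) shared a region with a TLX peak that was also called in BTSC. No member had a BTSC TLX summit within 1 kb, 103 (4.63%) had one within 10 kb and 537 (24.1%) within 100 kb. The rule left out sites that overlap a BTSC TLX peak, so the lack of close summits largely follows from it. The shares at greater distance depend on the 1436 peaks of the BTSC list and were not compared with other sites.

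The widest acetylated region with a member overlapped part of Lrig1, which dampens signalling of EGF-family receptors, and spanned 59694 bp in NSC. Its strongest member was at chr6:94640138-94640637 with a fold of 7.70. The next regions were in Xylt1, which starts glycosaminoglycan chains (48542 bp, member fold 5.74), Ptn, a secreted growth factor (45044 bp, 8.59), Prex1, a Rac exchange factor (44877 bp, 7.46), and the gamma protocadherin cluster, genes of neuronal cell adhesion (39797 bp, 8.99). All 5 strongest members of these regions overlapped BTSC H3K27ac, in peaks from 38108 to 112626 bp. The nested protocadherin genes share their 3′ exons and overlap, so that the member there had 24 host genes; 2191 of the 2227 members had 1 host.

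Among gene-body H3K27ac regions of NSC, those with a member were stronger than those without TLX. With regions placed by their midpoint, 1957 gene-body regions held a member and 11390 held no TLX peak of NSC. Median widths were 3052 bp (2860 to 3193) and 1409 bp (1388 to 1430), and median H3K27ac folds 8.33 (7.97 to 8.67) and 3.28 (3.25 to 3.31). In 5 equal groups of gene-body regions by H3K27ac fold, a member was present in 1.93%, 3.58%, 8.24%, 19.0% and 37.3%. BTSC acetylation overlapped 92.9% (91.7 to 94.0) of regions with a member and 73.6% (72.8 to 74.4) of those without TLX. Within those 5 groups the shares of regions with a member and without TLX were 59.3% and 51.3%, 67% and 64.9%, 82.6% and 77.8%, 94.2% and 92.1%, and 98.8% and 99.1%. The gap between both kinds of region was thus far smaller at matched H3K27ac fold than overall.

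Along the host gene, members were most frequent near the 5′ end. For 1755 members with 1 host gene of known strand, 18.6% (16.8 to 20.5) lay in the first of 10 equal parts of the gene and 4.67% in the last. The sites called in both cultures had 13.4% (9.97 to 17.5) and 7.58% of 343 in those parts, with wide intervals. Gene-body H3K27ac regions without TLX, placed by their midpoint, had 11.0% (10.4 to 11.7) and 8.01% of 8929. The distance of 1 kb that the rule keeps from gene ends removes the outermost positions of short genes in all 3 sets. It acts on the summit of TLX sites but on the midpoint of the regions without TLX. A wide region centred on a gene end is thus left out, while a TLX summit farther inside such a region is kept. The regions without TLX also had weaker H3K27ac, as given above. The part of this and of the unlike placement in the difference was not tested.

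**Figure D3:**
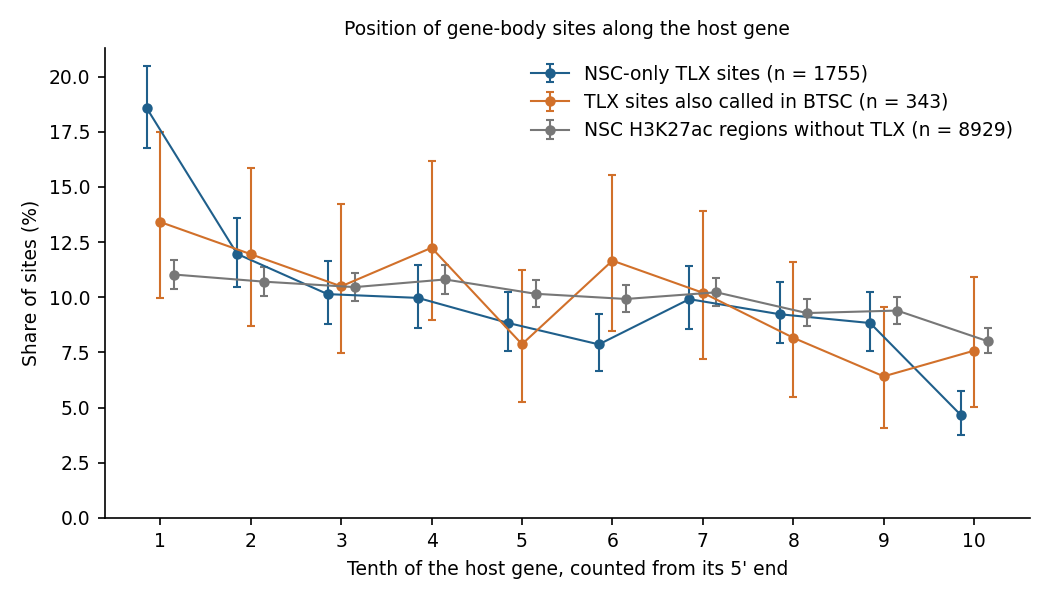
Share of sites (y axis, percent, with exact 95% intervals) in each of 10 equal parts of the host gene counted from its 5′ end (x axis), for 1755 NSC-only TLX sites, 343 sites also called in BTSC and 8929 NSC H3K27ac regions without TLX. In the first part the NSC-only sites reach 18.6% against 11.0% for the regions without TLX. TLX sites are placed by their summit and regions by their midpoint.

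Some members lay beside start sites inside the gene span, such as alternative promoters. Of 2131 members that could be placed against the RefSeq promoter table, 376 (17.6%, 16.0 to 19.3) were within 1 kb of an annotated start, in 318 cases one of the host gene itself. The share was 11.2% (8.29 to 14.6) of the sites called in both cultures. Among gene-body H3K27ac regions without TLX, placed by midpoint and so not quite alike, the share was 9.67% (9.12 to 10.2). Those regions also had weaker H3K27ac, with a median fold of 3.28 against 8.33 in regions with a member. The part of acetylation in this difference was not tested. The share near a start was 10.5% (8.39 to 12.9) in members with a −log10 q of 10 or more and 21.7% (19.5 to 23.9) in weaker ones. Members near a start had a median TLX fold of 4.40 (4.22 to 4.59) and an H3K27ac fold of 13.5, against 4.78 (4.74 to 4.78) and 8.08 for those farther away. BTSC H3K27ac overlapped 95.2% (92.5 to 97.1) and 91.6% (90.2 to 92.8). The label "inside gene bodies" therefore covers promoter-proximal sites as well as sites far from any annotated start.

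Hairpins of microRNAs lay within 1 kb of a member summit in 13 of 1005 cases. A pair of them is shown as mature sequences from RefSeq (GRCm38.p6), with the seed (bases 2 to 8) in capitals, since they are well-studied microRNAs. miR-128-3p is abundant in brain neurons, and its gene Mir128-2 lies in Arpp21. There the summit was 395 bp from the hairpin, the fold was 3.82, and BTSC H3K27ac was present. miR-148a-3p is encoded by Mir148a within the span of the predicted gene Gm38821, with the summit 810 bp away and a fold of 5.55. Their seeds differ.
miR-128-3p: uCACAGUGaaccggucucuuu
miR-148a-3p: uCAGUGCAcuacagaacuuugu

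The 2227 sites lay in 1630 host genes, 7.45% of the 21887 protein-coding genes. Of these hosts, 1212 held 1 member, 418 (25.6%, 23.5 to 27.8) held more, and 36 held 5 or more. With the NSC list shortened to the BTSC number of peaks, 7.74% of 297 hosts held more than 1. In 175 hosts (10.7%) an acetylated gene-body site called in both cultures was also present, and in 237 (14.5%) a BTSC TLX summit lay somewhere inside. An end of 1240 hosts (76.1%, 73.9 to 78.1) had NSC H3K27ac within 1 kb, as had 52.2% of all protein-coding genes, and BTSC H3K27ac was so placed at 1193 hosts (73.2%, 71.0 to 75.3). Hosts were chosen by NSC H3K27ac at their members, and for 386 members that region itself covered a gene end. The NSC share of hosts is thus in part set by the rule. An NSC TLX peak at a gene end accompanied the member in 328 hosts (20.1%).

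Host genes were long. Their median length was 93157 bp, against 17169 bp over all protein-coding genes. Of genes up to 10 kb 1.19% held a member, of those from 50 to 100 kb 13.3%, and of those over 500 kb 50.7% (44.0 to 57.3). Members per Mb of gene, each counted once for every host, varied less, from 3.07 in the shortest class to 1.34 in the longest, with values from 2.15 to 2.81 between. Full gene length was used, although no member can lie within 1 kb of a gene end, which lowers the value most in short genes. Because the share of hosts rose with length, counts over gene lists are given with the median gene length of the list.

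**Figure D4:**
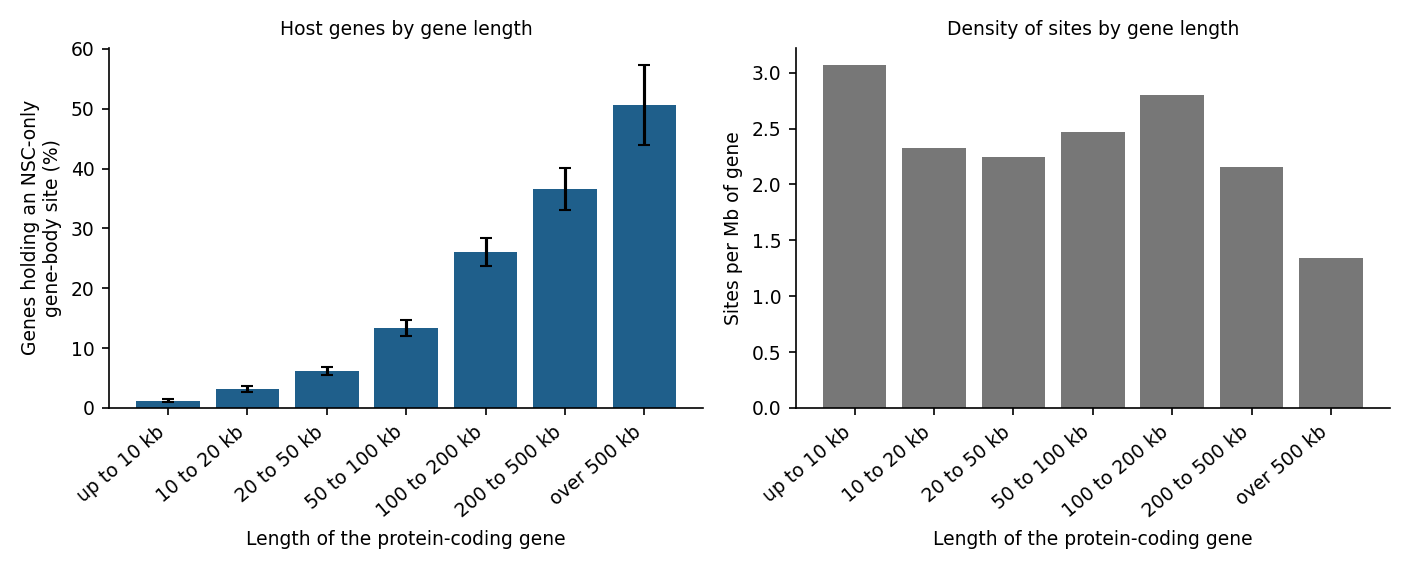
Left, share of protein-coding genes that hold an NSC-only gene-body site (y axis, percent, exact 95% intervals) by gene length (x axis), rising from 1.19% up to 10 kb to 50.7% over 500 kb. Right, number of sites per Mb of full gene length (y axis) in the same length classes, from 3.07 in the shortest to 1.34 in the longest. Each site is counted once for every host gene.

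The gene with most members was Nfia, which encodes a nuclear factor I protein of gliogenesis and of stem cell maintenance, with 12 sites along its 540811 bp (chr4:97578066-98118876). Their folds ranged from 3.25 to 8.93 with a median of 4.52, and they fell in 11 H3K27ac regions. All 12 overlapped BTSC H3K27ac, and 2 further sites in the gene were called in both cultures. Arhgap26, a GTPase-activating protein gene, held 9 sites with folds from 4.40 to 7.08, of which 8 overlapped BTSC H3K27ac. Septin9, a cytoskeletal GTPase gene, held 8 with folds from 3.44 to 7.46 in 5 regions. Next stood Npas3, a basic helix-loop-helix factor of the developing brain (7 sites, folds 3.20 to 9.37), and Ank2, a membrane scaffold of neurons (7 sites, folds 4.02 to 7.08). Tcf4, Lrig1 and Gse1 also held 7. In Lrig1 all 7 lay in 2 regions that reached a gene end, whereas none of the 7 in Gse1 did.

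Hosts were also counted in lists of genes by role. All 464 distinct genes of the 26 lists were found in the annotation. The 7.45% of all genes is only a rough reference, as members need NSC H3K27ac and hosts are long. Of all genes up to 10 kb 1.19% held a member, from 50 to 100 kb 13.3% and from 100 to 200 kb 26.0%. Of those with NSC H3K27ac at an end, the shares were 3.01%, 15.3% and 30.2%. The lists were not tested against matched genes. The neural stem cell list held a member in 8 of 20 genes (40%, 19.1 to 63.9, with a median length of 7032 bp), and all 16 sites overlapped BTSC H3K27ac. As 92.3% of all members overlapped it, full overlap in a small list, here and below, is near the share of all members. Msi2, an RNA-binding protein of stem cells, held 6 sites with folds from 3.25 to 6.31, and 3 more sites in it were called in both cultures. The intermediate filament gene Nes held 2 with folds of 4.02 and 4.40, and Pax6, a homeobox gene of radial glia, 1 of fold 4.97 at chr2:105676113-105677222. In the short gene Sox2 the site, of fold 3.82, was 1036 bp from the gene end within 27340 bp of acetylation.

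Transcription factor genes of neural progenitors were among the hosts. Of nuclear factor I and POU genes 5 of 8 held a member (median length 21001 bp), and of Sox factors 7 of 13 (4794 bp). Beside Nfia, Nfib held 4 sites, Nfix 2 and Nfic 1. Sox6 held 5 sites of folds up to 4.78 and Sox5 held 4 up to 5.16, both in genes of great length, while Sox4, Sox8, Sox9 and Sox11 held 1 each. All 14 sites in Sox genes and all 20 in nuclear factor I and POU genes overlapped BTSC H3K27ac. Forebrain patterning genes held a member in 9 of 21 (42.9%; 10864 bp). Of their sites 23 of 27 overlapped BTSC H3K27ac, against 92.3% of all members. The others were the 3 of Six3, which share 1 H3K27ac region, and 1 of 3 in Emx2. Nr2f2, a nuclear receptor gene, held a site of fold 7.08 with BTSC acetylation.

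Among signalling pathways, ligands, receptors and transcriptional effectors were all represented. In the Wnt pathway 11 of 32 genes held a member (34.4%; median length 71238 bp). The ligand genes Wnt7a and Wnt7b had sites of folds 3.23 and up to 3.95, and Wnt5a and Wnt5b of 3.55 and 3.20. The receptor genes Fzd3 and Lgr5 had 6.36 and 6.92, and the effector genes Tcf7l1 and Tle4 up to 6.88 and 7.46. All 14 Wnt sites overlapped BTSC H3K27ac, and the effector gene Tcf7l2 held 2 of folds 3.25 and 4.40. In the Hedgehog pathway 6 of 14 held a member (69480 bp). The receptor gene Ptch1 held 4 sites with folds from 4.78 to 7.84, the inhibitor gene Sufu 1 of fold 9.94 at chr19:46484348-46485218, and the effector genes Gli2 and Gli3 2 and 1.

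In the Notch pathway 6 of 25 genes held a member (24%; 22010 bp), with 11 of 11 sites in BTSC H3K27ac. Notch1 held 2 sites, of folds 4.21 and 5.74, beside 2 called in both cultures, and the ligand gene Jag1 held 1 of 4.40. The coactivator genes Maml2 and Maml3 held 3 and 2. For BMP and TGF-beta 8 of 28 held a member (65083 bp), led by the receptor gene Bmpr1b with 3 sites up to 6.88 and the ligand gene Bmp7 with 2 up to 6.69. Receptor tyrosine kinases and their feedback genes had 11 of 26 (59085 bp), with 24 of 24 sites in BTSC H3K27ac; beside Lrig1, Ntrk2 and Ntrk3 held 3 each, and Fgfr2, Insr and Erbb4 2 each.

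Axon guidance genes are long, and many were hosts. Of ephrin receptor, semaphorin, plexin, Slit and Robo genes 16 of 30 held a member (53.3%, 34.3 to 71.7), but their median length was 192935 bp. BTSC H3K27ac overlapped 26 of their 32 sites, against 92.3% of all members, and this difference was not tested. The receptor gene Robo1 had 2 sites of folds 4.21 and 6.69, the Slit ligand genes Slit3 1 of 7.27 and Slit1 3 up to 4.97, and Epha7 1 of 4.59. Both Robo1 sites and the Slit3 and Epha7 sites lacked BTSC acetylation, as did 1 of 3 sites in Slit1 and 1 of 3 in Sema3a. Sema6d held 5 sites with folds from 4.21 to 8.60, all with BTSC acetylation. Genes of extracellular matrix and integrins had 12 of 28 (87475 bp), with all 15 sites in BTSC H3K27ac, among them Col27a1 with 4 sites, Itgav with 1 of fold 6.12 and the lectican genes Vcan, Bcan and Ncan with 1 each.

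Genes of chromatin and of TLX function were also hosts. Of chromatin and DNA methylation enzymes 11 of 18 held a member (61.1%, 35.7 to 82.7; 85513 bp), with all 18 sites in BTSC H3K27ac. Tet3, an enzyme that oxidises methylcytosine and a reported target of TLX, held 3 with folds up to 10.3, the strongest at chr6:83410116-83410822. Smarca2 held 1 of 8.03, Chd7 2 up to 7.46 and Kdm6b 2 up to 7.08. Reported TLX targets held a member in 6 of 15 genes, namely Wnt7a, Wnt7b, Plce1, Tet3, Hif1a and Vegfa, with a median fold of 3.82 over 9 sites. Of TLX corepressors and partners 5 of 15 held one, among them Hdac5, Hdac7, Bcl11a and Bcl11b, and the Bcl11a site lacked BTSC H3K27ac. Nuclear receptor genes had 6 of 24 (38157 bp), with Rara holding 4 sites up to 4.67 and Rora 2 up to 7.08.

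Among genes of the cell cycle, Ccnd2 held 4 sites with folds from 3.28 to 4.40, of which 3 overlapped BTSC H3K27ac, and Cdk6 held 1 of 6.50. Proliferation genes and D cyclins had 4 of 19 hosts, and cell cycle inhibitors and glioma suppressors 3 of 19, namely Cdkn1b, Rb1 and Tsc1. AP-1 and YAP genes had 2 of 17.

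Lists of other cell types served to check the label of the culture. H3K27ac of NSC lay at an end of 18 of 20 neural stem cell genes, 2 of 12 microglia and myeloid genes, 1 of 12 endothelial genes and 1 of 16 genes of other tissues. It also lay at an end of 11 of 15 astrocyte genes, 9 of 15 oligodendrocyte genes and 9 of 17 neuron genes, so these lists do not set neural stem cells apart from other neural cells. Of all protein-coding genes 52.2% had NSC H3K27ac so placed, as had 11 of 12 housekeeping genes. The lists were not tested against that share. Microglia and myeloid genes held a member in 0 of 12 (an upper 95% bound of 26.5%) and genes of other tissues in 0 of 16 (20.6%). Since members need NSC H3K27ac, which few of these genes had at an end, these counts do not check the label. Endothelial genes had 2 of 12, with a site of fold 4.59 in Pecam1 and 3 sites in Ets1. Neuron genes had 2 of 17, namely Map2 with 2 sites and Syt1 with 1. Oligodendrocyte genes had 3 of 15, of which Nkx2-2 lacked BTSC H3K27ac at both its sites. Astrocyte genes had 2 of 15, Nfia and Slc1a3, which other lists hold as well. Glutamate and GABA receptor genes, with a median length of 324036 bp, had 7 of 22 (31.8%), against 36.6% of all genes from 200 to 500 kb. Their sites in Grin2b and Grm7 lacked BTSC H3K27ac. Housekeeping genes had 1 of 12, Ywhaz.

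**Figure D5:**
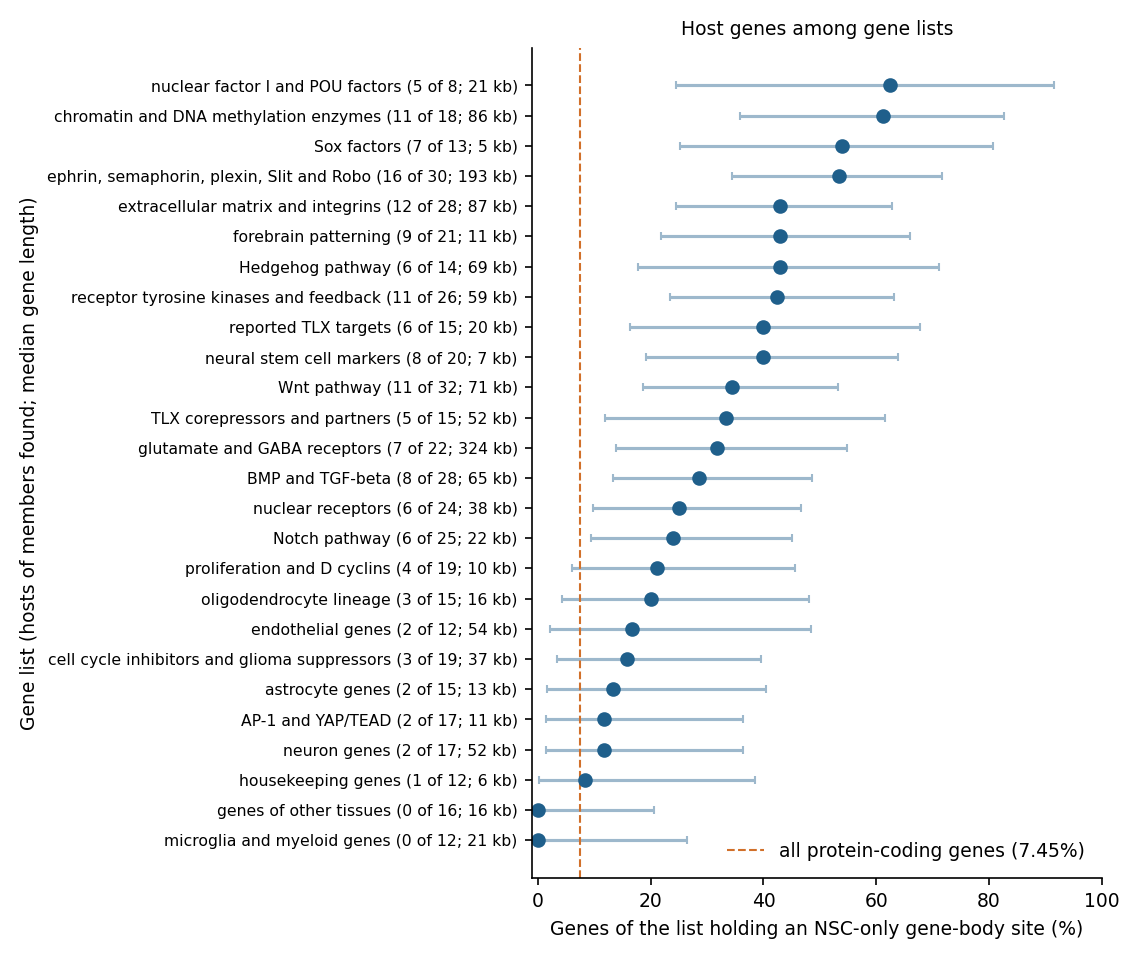
Share of the genes of each of 26 lists that hold an NSC-only gene-body site (x axis, percent, exact 95% intervals), with the number of hosts and the median gene length beside the name of each list (y axis). The dashed line is the 7.45% of all protein-coding genes, which are not matched to the lists by length or acetylation. All lists lie to its right, housekeeping (8.33%) and endothelial genes (16.7%) included, except 2. These are microglia genes (0 of 12) and genes of other tissues (0 of 16).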

How the data were processed

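Chromatin was fixed for 10 min in 1% formaldehyde, sheared to about 200 bp and sequenced as paired reads of 50 bp, per the labels' protocols. The submitters' processing notes name bcl2fastq 2.17.1.14, Bowtie and ChIPseeker with build mm10. The peak caller and the read numbers were not given in the sources used here. Each of the 4 peak lists that the authors deposited comes from 1 library; TLX peaks are narrow and H3K27ac peaks broad. The deposited values per peak are a fold (a linear ratio over background), −log10 values of p and of q, and a score that orders peaks by q. These are the authors' own values and served to describe, rank or group peaks within 1 list. No filter for artefact regions was applied here.

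Peaks were compared by an overlap of at least 1 bp (Python 3.11.15, pandas 2.3.3, numpy 2.4.6, scipy 1.17.1, matplotlib 3.10.9), with the assignment checked on simulated peaks. Shares have exact Clopper-Pearson intervals and medians exact order-statistic intervals. Genes came from RefSeq (GRCm38.p6, 21887 protein-coding genes), without strand or exons, so exons, introns and untranslated regions were not distinguished. Strand and start sites inside genes came from the promoter table, which did not place the 96 members on chromosome 18.

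The members and the gene lists were chosen with earlier results of these data known. By rule, named sites are the 20 of highest q, the 5 hosts with most members, the strongest member of each of the 5 widest H3K27ac regions, the 10 of highest q without BTSC H3K27ac, the 3 on each side of the 1 kb limit, and hosts in the lists. A few of these genes are not reported here. Scrn1, Six3 and Nkx2-2 as hosts of members without BTSC H3K27ac, the further hosts with 7 members, the printed windows and the microRNAs were picked after their values were seen.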

Additional observations from a re-analysis of the deposited data

How the results depend on the processing

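Over 8 results and 13 alternatives, 83 of 104 values stayed within the main interval or, for counts, within 1.5 times, and 21 did not; the cause was not tested. With as many NSC as BTSC TLX peaks, taken from the top by q, there were 298 members in 297 hosts, 7.74% of them with more than 1, an NSC-only share of 57.1%, a BTSC H3K27ac share of 90.3%, a share of regions reaching a gene end of 10.7%, a distance of 28910 bp and a fold of 7.46. With −log10 q of at least 5 in every list the BTSC H3K27ac share was 86.2% and the fold 4.97, and with summits inside H3K27ac that share was 90.8%. The NSC-only share was 87.0% with a reciprocal overlap of 50% and 86.8% with summits within 200 bp. The share of regions reaching a gene end and the median distance were 8.59% and 27749 bp with a window of 2.5 kb, 27.4% and 12355 bp with one of 500 bp, and 20.9% and 10116 bp with all genes of the table, where 22.2% of hosts held more than 1. Without summits near annotated starts, an alternative chosen after seeing the data, the distance was 23527 bp. No paired analysis was possible because each group has 1 library. Depth is unknown, so a peak missing in BTSC may have been below detection.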
